A study of Mus musculus with 24 samples.

Results

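Choroidal transcripts of Ceacam1-/- mice were compared with those of wild type mice after laser treatment. All libraries whose label states laser treatment were taken, 7 from Ceacam1-/- and 9 from wild type mice, of 24 libraries in the series. The remaining 8 libraries, 4 of each genotype, had no laser and are given beside them. The laser-treated libraries are referred to by the number in their label, 4, 5, 6, 7, 14, 15 and 18 for Ceacam1-/- and 1, 2, 3, 11, 12, 13, 16, 17 and 19 for wild type.

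Ceacam1-/- mice lack exons 1 and 2 of Ceacam1 in every cell. Knockout and wild type littermates were bred from heterozygous carriers on a C57BL/6J background. The laser groups were treated to induce choroidal neovascularization (CNV), for which the methods give 6 spots per eye of a frequency-doubled Nd:YAG laser (150 mW, 200 µm, 100 ms). The labels give genotype, tissue and laser only. The methods give an age of 6 to 8 weeks as the default and the use of both sexes, whereas the sex of each library and the time after laser are not given in the sources used here. The study counts 4 mice of each genotype without laser, and whether each laser library came from a separate animal is not stated, so their p-values measure the spread between these libraries, which may be technical in part.

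RNA was sequenced from SMART-Seq libraries, which do not record the strand, and the deposited values are normalized counts, in which estimated reads are divided by factors for library size and for differences in transcript length between libraries. They are not per gene length, so levels are compared between libraries and not between genes. Their sum per library was 23704346 to 25940731 in Ceacam1-/- and 23717571 to 28563124 in wild type mice. Between 26581 and 27950 genes were above 0 in the Ceacam1-/- and between 25246 and 27964 in the wild type libraries. Differences are log2 fold changes, Ceacam1-/- minus wild type, of the normalized count plus 1, which understates the change of genes near 0. They were tested with limma in the 19757 genes whose mean over the 16 libraries reached 10 normalized counts, with Benjamini-Hochberg adjustment over all of them.

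CEACAM1 is a cell adhesion molecule of the immunoglobulin superfamily that binds itself and its relatives on neighbouring cells. Through its cytoplasmic tail it recruits tyrosine phosphatases, and it is known from endothelial, epithelial and immune cells. The choroid is the vascular and pigmented layer between the sclera and the retinal pigment epithelium (RPE), and a laser spot ruptures the membrane between the RPE and the choroid, after which choroidal vessels grow inwards and macrophages gather. In the study, choroid stands for RPE, choroid and sclera taken as one piece, so that RPE and sclera belong to the sample. The retina on the inside and the eye muscles on the outside are its neighbours, and a dissection can carry parts of both. In bulk RNA, fewer cells of a type and less RNA per cell cannot be told apart.

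Before the genotypes were compared, the similarity of the libraries was examined. Ceacam1-/- libraries 14, 15 and 18 stood apart from all others with laser. Across the tested genes, their Pearson's r with wild type libraries was between 0.722 and 0.929 (median 0.821) and with the other Ceacam1-/- libraries between 0.773 and 0.894 (median 0.832). In contrast, Ceacam1-/- libraries 4, 5, 6 and 7 correlated with the wild type libraries with an r between 0.892 and 0.963 (median 0.941), and the wild type libraries among themselves with an r between 0.857 and 0.966 (median 0.929). Genes are not independent replicates, and the correlations serve as a description.

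The first principal component held 41.1% of the variance and placed library 14 at 177, library 18 at 172 and library 15 at 118. The highest other library on it was wild type library 19 at 45.5. The 3 libraries had the highest level of rod genes among those with laser. The mean log2 value of 22 rod genes was 15.3 in library 14, 14.4 in library 15 and 15.2 in library 18, and at most 13.01 in all other libraries with laser. Without laser, Ceacam1-/- library 23 reached 14.39 and wild type library 21 reached 14.32. The median of each tissue and pathway list is therefore given with all 16 libraries and without these 3, a subset chosen after seeing the data, which leaves 4 Ceacam1-/- libraries.

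The Y-linked genes also differed in number of libraries. Ddx3y, an RNA helicase on the Y chromosome, was between 1934 and 4014 normalized counts in wild type libraries 1, 12, 16, 17 and 19 and was 2331 in Ceacam1-/- library 6. It was at most 17.9 in the other 10 libraries. Sex and genotype were thus unevenly combined, with 5 of 9 wild type and 1 of 7 Ceacam1-/- libraries carrying Y-linked RNA. The 4 Y-linked genes tested had a median log2 fold change of -4.20, and their summed level was used as a covariate in an alternative fit.

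The targeted gene was examined first. Ceacam1 (ENSMUSG00000074272) lies on the minus strand of chromosome 7 in GRCm39, chr7:25161128-25177257, and its annotated transcript has 8 exons. Its normalized count was between 67.8 and 905 (median 335) in the Ceacam1-/- and between 774 and 8367 (median 996) in the wild type libraries. In 6 of 7 Ceacam1-/- libraries Ceacam1 lay below every wild type library, while library 15, with 905, lay within the wild type range. The log2 fold change was -2.17 (standard error, SE, 0.52, adjusted p = 0.104 from limma). The two-sided exact permutation test of this single gene gave p = 0.000175, or 0.000262 after adjustment over the 6 genes whose test with laser is given. These 6 include the genes past the threshold, so that adjustment does not cover their choice among all genes tested. The count is summed over the gene, so reads from the exons outside the deletion, and from the antisense lncRNA 4732471J01Rik that overlaps it with a mean normalized count of 78.8, cannot be told apart from reads of the deleted part.

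Without laser, Ceacam1 differed by -1.95 on the log2 scale (exact permutation p = 0.0571, with 0.0286 as the smallest p possible). The interaction of genotype and laser for Ceacam1 was -0.21 on the log2 scale, with an unadjusted p of 0.811. Ceacam2, the closest relative of Ceacam1 on the same chromosome, was between 0 and 23.9 normalized counts in the Ceacam1-/- and between 0 and 32.5 in the wild type libraries, below the level tested. In a list of Ceacam1, its relatives and its signalling partners 11 genes were tested. Of these, 3 were lower with an unadjusted p under 0.05, Ceacam1 itself among them, and none higher. Of all genes tested, 9.85% were lower and 12.8% higher at that p. The median log2 fold change of the list was -0.21. Without Ceacam1-/- libraries 14, 15 and 18, 1 of 10 genes tested was lower and 1 higher, compared with 3.96% and 4.44% of all genes. The median was then 0.044.

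In the comparison of genotypes after laser 4 genes passed an adjusted p of 0.05, or 0.0202% of all genes tested. Tescl and Gm45246 rose and Apoc2 and Mrps12 fell in Ceacam1-/- mice. Leaving out 1 library raised the number to 61 (wild type library 19), 25 (wild type library 17) or 7 (Ceacam1-/- library 4). At an adjusted p of 0.1 the number was 106 genes (0.537%), of which 32 were higher and 74 lower. An unadjusted p under 0.05 was reached by 4479 genes (22.7%), of which 2533 were higher (12.8%) and 1946 lower (9.85%). The median log2 fold change of all genes was 0.01, and 9640 genes (48.8%) were lower in Ceacam1-/- mice. With libraries 14, 15 and 18 left out 19316 genes were tested, and 2 passed the adjusted p of 0.05 (0.0104%), Apoc2 and Mrps12. An unadjusted p under 0.05 was then reached by 1623 genes (8.4%), of which 858 were higher (4.44%) and 765 lower (3.96%). These shares of all genes are the background for the counts of each list below.

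Tescl encodes a tescalcin-like protein and lies 1.13 Mb from Ceacam1, at chr7:24032507-24033361. It was between 16.5 and 44.2 normalized counts (median 27.9) in the Ceacam1-/- libraries and between 0 and 3.71 (median 0) in the wild type libraries, where 7 of 9 were at 0. The groups did not overlap. Its log2 fold change was 4.31 (SE 0.47, adjusted p = 0.00104 from limma), and the exact permutation p was 8.74e-05, the smallest that 7 against 9 allows. Over the alternative settings that tested it the adjusted p was between 0.000132 and 0.0352, and without libraries 14, 15 and 18 it was below the level tested. Tescl reached the mean of 10 needed for testing only through the Ceacam1-/- libraries, and its adjusted p was 0.000628 from limma with no filter on the mean.

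Gm45246 is a processed pseudogene on chromosome 8, at chr8:98602786-98603152. It was between 12.1 and 37.4 normalized counts (median 30.2) in the Ceacam1-/- and between 0 and 13.4 (median 0.769) in the wild type libraries. Wild type library 2, at 13.4, was the only one above 1.22, and the Ceacam1-/- libraries reached down to 12.1 only in library 4. This gave a log2 fold change of 3.80 (SE 0.54, adjusted p = 0.00875 from limma, exact permutation p = 0.000262). The call was lost with the Y-linked genes, the rod genes or the sarcomere genes as a covariate, with an adjusted p of 0.171, 0.0959 and 0.33 from limma. Over the other settings it reached down to 0.000197. Gm45246, too, reached the mean of 10 only through the Ceacam1-/- libraries, and had an adjusted p of 0.00897 from limma with no filter. It was below the level tested without libraries 14, 15 and 18. A processed pseudogene is a copy of an mRNA of another gene, and reads of the parent gene may be counted on it.

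Apoc2 encodes the apolipoprotein that activates lipoprotein lipase and lies 5.76 Mb from Ceacam1, at chr7:19405504-19411877. It was between 17.8 and 65.4 normalized counts (median 48.8) in the Ceacam1-/- and between 133 and 495 (median 308) in the wild type libraries. The groups did not overlap, and the lowest values, 17.8, 19.9 and 25.7, were those of libraries 18, 14 and 15. The log2 fold change was -2.82 (SE 0.35, adjusted p = 0.00188 from limma, exact permutation p = 8.74e-05, the smallest possible). It was -2.20 without libraries 14, 15 and 18, with an adjusted p of 0.0404 from limma. Apoc2l, a gene annotated on the same strand over the same position, had a mean of 2.48. Over all alternative settings the adjusted p of Apoc2 was between 0.000817 and 0.221.

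Mrps12 encodes a protein of the small subunit of the mitochondrial ribosome and lies 3.28 Mb from Ceacam1, at chr7:28439066-28441680. It was between 406 and 544 normalized counts (median 446) in the Ceacam1-/- and between 729 and 1174 (median 877) in the wild type libraries, again with no overlap. Mrps12 was 1.99-fold lower in Ceacam1-/- mice, a log2 fold change of -0.99 (SE 0.12, adjusted p = 0.00188 from limma) and -1.01 without libraries 14, 15 and 18. The exact permutation p was 8.74e-05, the smallest possible. Sars2, on the opposite strand, overlaps Mrps12 and had a mean normalized count of 299.7, and reads of both strands cannot be told apart here. With the mean of the sarcomere genes as a covariate, Apoc2 differed by -2.36 and Mrps12 by -0.91, both with an adjusted p of 0.221 from limma, the highest over the alternative settings, and the lowest for Mrps12 was 0.000303.

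The 8 libraries without laser are separate samples of the same genotypes. No gene passed the adjusted p of limma there, and 307 of 20057 genes had an unadjusted p under 0.05 (1.53%). The study, with DESeq2 and sex as a covariate, does report genes at an adjusted p under 0.05 in choroid without laser. The absence of calls thus holds only for limma on these log2 values without sex. Mrps12 was between 436 and 1087 normalized counts in the Ceacam1-/- and between 853 and 1290 in the wild type libraries without laser, with a log2 fold change of -0.84. Tescl was between 5.29 and 78.9 and between 0 and 10.3, with a log2 fold change of 2.79. Gm45246 was between 14.1 and 30.2 in the Ceacam1-/- and between 0 and 1.71 in the wild type libraries without laser, which did not overlap (log2 fold change 3.97, exact permutation p = 0.0286, the smallest possible).

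Apoc2 was at a low level without laser, between 0 and 6.14 in the Ceacam1-/- and between 3.22 and 18.1 in the wild type libraries, and below the level tested there. The interaction of genotype and laser passed the adjusted p of limma in none of 19950 genes and an unadjusted p under 0.05 in 1241 (6.22%). The interaction was 1.52 for Tescl, -0.15 for Mrps12, -0.17 for Gm45246 and -1.49 for Apoc2 on the log2 scale, with unadjusted p of 0.145, 0.579, 0.839 and 0.0581. Without Ceacam1-/- libraries 14, 15 and 18 the interaction had an unadjusted p under 0.05 in 458 of 19723 genes and was -0.87 for Apoc2 (unadjusted p = 0.256).

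**Figure D1:**
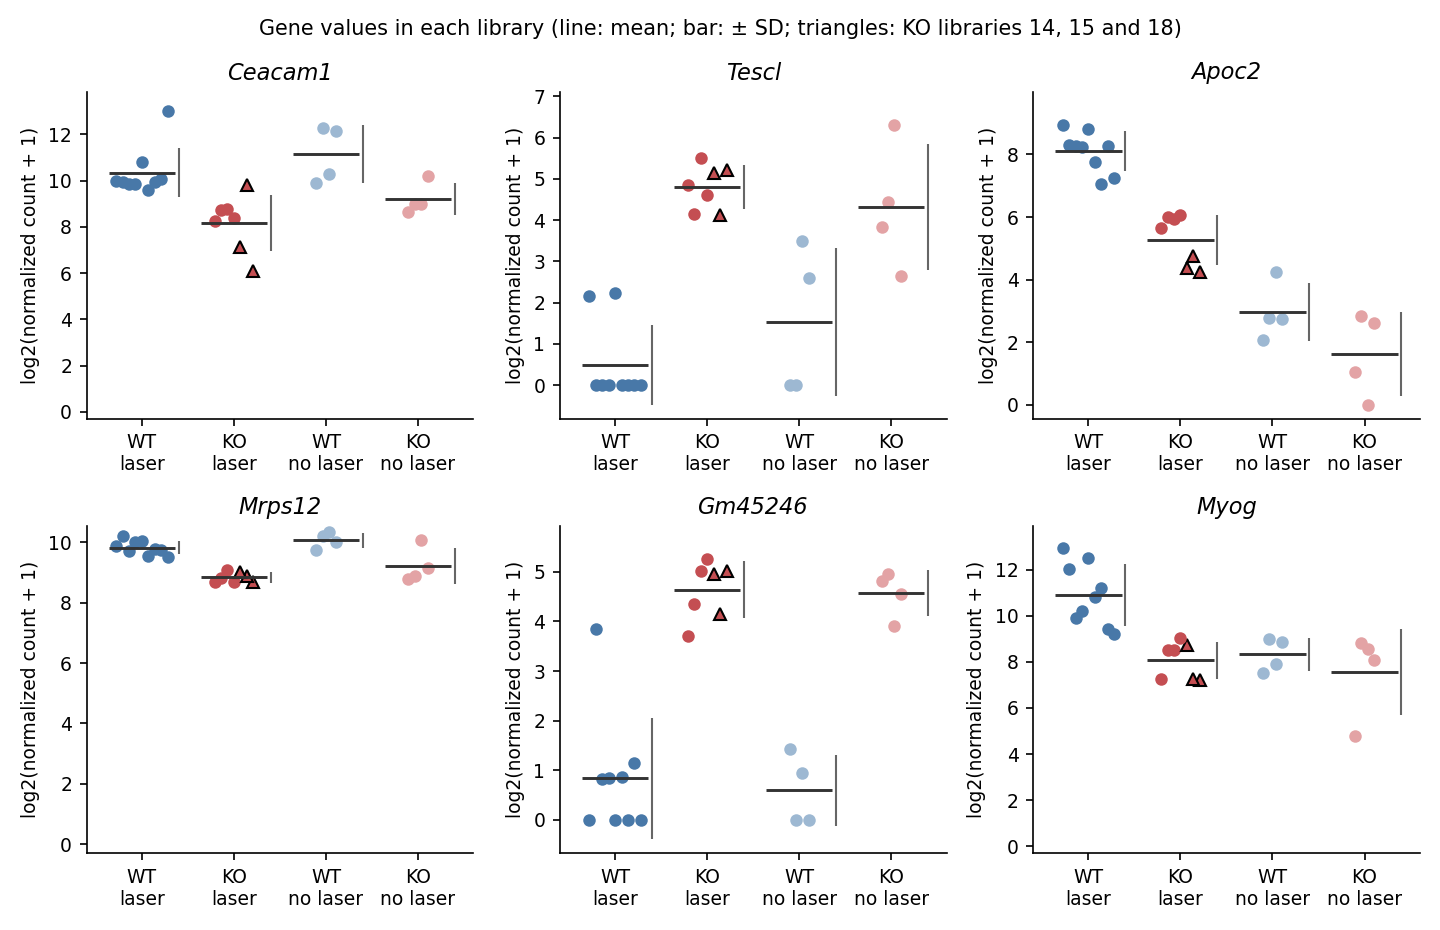
Log2 of the normalized count plus 1 in each library (points) of Ceacam1, Tescl, Apoc2, Mrps12, Gm45246 and Myog in wild type (WT) and Ceacam1-/- (KO) mice with and without laser, with the group mean as a line, its SD as a bar and libraries 14, 15 and 18 as triangles. After laser the genotypes do not overlap in Tescl, Apoc2, Mrps12 and Myog, whereas 1 Ceacam1-/- library lies within the wild type range of Ceacam1.

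Of the 4 genes that passed, 3 lie near Ceacam1, and therefore the neighbourhood was examined. Within 10 Mb of Ceacam1 on chromosome 7, 339 genes were tested, and 13 of them had an adjusted p under 0.1 (3.83%), compared with 0.591% of the genes elsewhere on chromosome 7 and 0.472% on the other chromosomes. In 8 of the 339 genes (2.36%) the genotypes did not overlap, 3 with higher and 5 with lower values in Ceacam1-/- mice. The share was 0.253% elsewhere on chromosome 7 and 0.0987% on other chromosomes. Both counts of the window include Tescl, Apoc2 and Mrps12, for which it was examined, so they are not independent of that choice. The difference between the regions was not tested. At an unadjusted p under 0.05 the shares were closer, 26.3% in the window, 22.8% elsewhere on chromosome 7 and 22.6% on the other chromosomes. They were 14.2% in the window and 8.21% on other chromosomes without libraries 14, 15 and 18, and in the libraries without laser 4.49% and 1.42%. The knockout allele and the chromosome segment around it are inherited together, and an effect of the segment and of the deletion cannot be told apart.

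Further genes of the window differed without passing the threshold. Zfp61, a zinc finger protein, was between 343 and 920 normalized counts in the Ceacam1-/- (median 544) and between 147 and 343 in the wild type libraries (median 231). This was a log2 fold change of 1.30, with an adjusted p of 0.0706 from limma, and the lowest Ceacam1-/- library lay just above the highest wild type library. It passed the threshold without Ceacam1-/- library 4 or wild type library 3, 17 or 19, with an adjusted p of 0.0249, 0.0395, 0.0445 and 0.0290 from limma. Ech1, a peroxisomal and mitochondrial enzyme of fatty acid oxidation, was between 1019 and 2905 (median 2175) compared with 3161 to 5613 (median 4185), with a log2 fold change of -1.15 and an adjusted p of 0.0822 from limma, or -0.73 without libraries 14, 15 and 18.

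Apoe, the lipid carrier of glia, RPE and macrophages, lies in the same gene cluster as Apoc2. It was between 17781 and 58194 normalized counts (median 45867) in the Ceacam1-/- and between 63957 and 118802 (median 84272) in the wild type libraries. There was no overlap, with a log2 fold change of -1.32 (SE 0.28, adjusted p = 0.0822 from limma), or -0.74 without libraries 14, 15 and 18. Without laser the log2 fold change of Apoe was 0.27, and the interaction was -1.60 with an unadjusted p of 0.00198, or -1.02 (unadjusted p = 0.0096) without the 3 libraries. Of 10 apolipoprotein and lipid transport genes tested, 4 were lower and 2 higher with an unadjusted p under 0.05, with a median log2 fold change of -0.38. Without libraries 14, 15 and 18, 2 were lower and 1 higher, and the median was -0.064.

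**Figure D2:**
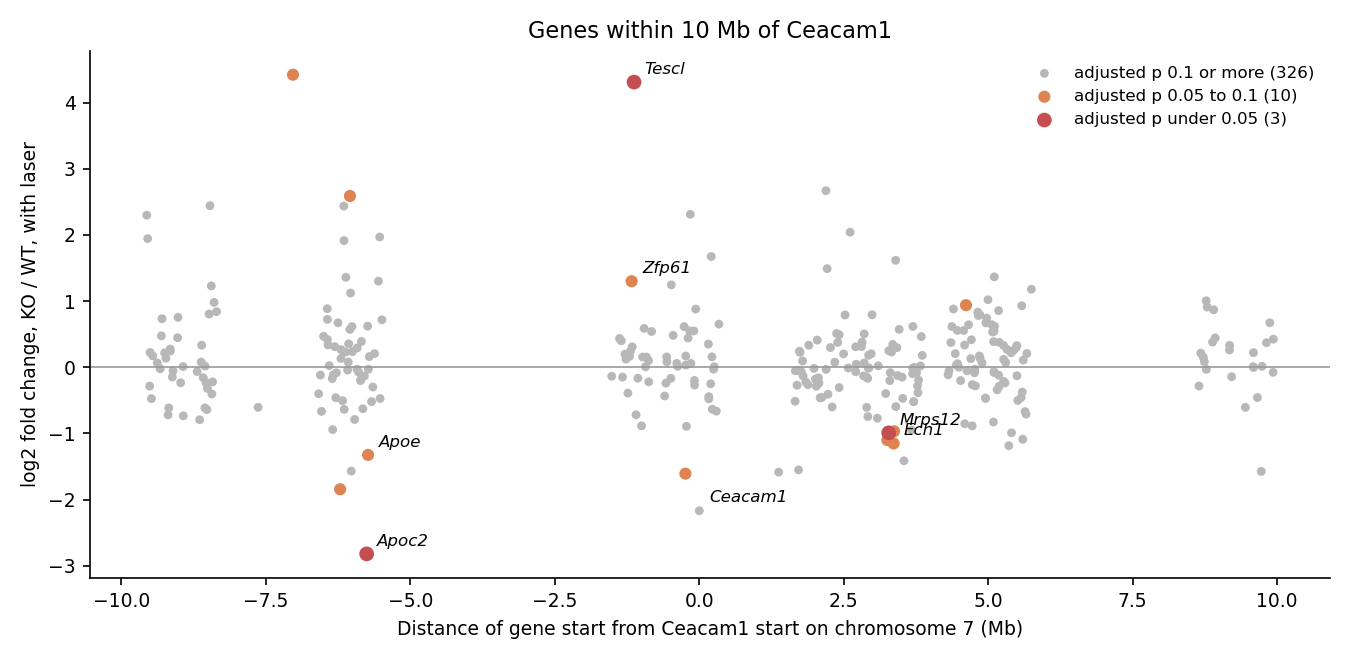
Log2 fold change, Ceacam1-/- minus wild type after laser, of each gene tested within 10 Mb of Ceacam1 against its distance from Ceacam1 in Mb, coloured by adjusted p. The 3 genes with an adjusted p under 0.05 are Tescl at 4.31, Apoc2 at -2.82 and Mrps12 at -0.99, and they lie on both sides of Ceacam1.

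Most muscle genes tested were lower in Ceacam1-/- mice both with all libraries and without libraries 14, 15 and 18, and none of them passed the adjusted p of 0.05 in either fit. Extraocular muscles attach to the outside of the sclera, and their fibres express sarcomere genes, whereas myogenic factors such as MyoD and myogenin are expressed by satellite cells that proliferate and fuse after injury. All 28 sarcomere and excitation-contraction genes were lower in Ceacam1-/- mice, 26 of them with an unadjusted p under 0.05, and the median log2 fold change was -1.34. The mean log2 value of these genes was 11.77 ± 1.14 (SD, n = 7) in the Ceacam1-/- and 13.16 ± 0.71 (SD, n = 9) in the wild type libraries, and 3 of 7 Ceacam1-/- libraries lay below every wild type library. All 28 genes were also lower without libraries 14, 15 and 18, 15 with an unadjusted p under 0.05 (3.96% of all genes in that direction), and the median was -0.85.

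Acta1, the actin of skeletal muscle and the sarcomere gene with the highest normalized count, was between 3804 and 69017 normalized counts (median 31806) in the Ceacam1-/- and between 20781 and 129730 (median 79488) in the wild type libraries. The groups overlapped in most libraries, and the log2 fold change was -1.33 (adjusted p = 0.164 from limma). It was -0.65 without libraries 14, 15 and 18, and -0.86 without library 14 alone. Myh4, a myosin heavy chain of fast fibres, had medians of 6248 and 23079 (log2 fold change -1.89, and -1.40 without the 3), and Ckm, the creatine kinase of muscle, of 7934 and 28378 (log2 fold change -1.57, -0.89 without the 3 and -1.02 without library 14). Tnni1, the troponin I of slow fibres, had medians of 428 and 1860 (log2 fold change -1.79, and -1.85 without the 3). No gene of the sarcomere list passed the adjusted p of 0.05.

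The median difference was larger among the myogenic genes. Of 20 myogenic factors, satellite cell genes and developmental myosins tested, 17 were lower with an unadjusted p under 0.05 and none higher. The median log2 fold change was -1.96. The mean log2 value of the list was 7.22 ± 0.55 (SD, n = 7) in the Ceacam1-/- and 9.19 ± 0.87 (SD, n = 9) in the wild type libraries, and 6 of 7 Ceacam1-/- libraries lay below every wild type library. The median was -1.80 without libraries 14, 15 and 18, with 16 genes lower at an unadjusted p under 0.05.

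Myog encodes myogenin, the transcription factor that drives myoblasts into differentiation, and lies on chromosome 1 at chr1:134217707-134220287. It was between 146 and 517 normalized counts (median 362) in the Ceacam1-/- and between 589 and 7851 (median 1800) in the wild type libraries. The highest values were those of wild type libraries 1, 12 and 2, with 7851, 5770 and 4219, and the genotypes did not overlap. The log2 fold change was -2.85 (SE 0.53, adjusted p = 0.0822 from limma, exact permutation p = 0.000262). It was -2.60 without libraries 14, 15 and 18, and Myog passed the threshold without wild type library 17 or 19, with an adjusted p of 0.0407 and 0.0290 from limma, as did Myod1 and Cdh15.

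Myod1, which commits cells to the muscle lineage, was between 75.6 and 103 normalized counts (median 91.8) in the Ceacam1-/- and between 147 and 1254 (median 424) in the wild type libraries. The Ceacam1-/- libraries were close to each other and the wild type libraries spread widely, without overlap. Myod1 differed by -2.28 on the log2 scale (SE 0.41, adjusted p = 0.0822 from limma). Cdh15, the M-cadherin of satellite cells, was between 64.1 and 95.4 in the Ceacam1-/- and between 115 and 1100 in the wild type libraries, with a log2 fold change of -2.11. Myf5, the related factor of muscle progenitors, had medians of 28.3 and 122 (log2 fold change -1.94).

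The membrane proteins that fuse myoblasts were also lower. Mymx, myomixer, was between 9.72 and 80.4 normalized counts (median 40.4) in the Ceacam1-/- and between 68.8 and 864 (median 203) in the wild type libraries, with a log2 fold change of -2.88 (adjusted p = 0.0822 from limma). Mymk, myomaker, had medians of 201 and 907 (log2 fold change -2.40, adjusted p = 0.108 from limma). Genes of immature fibres followed. Ankrd1, a stretch-responsive ankyrin repeat protein, had medians of 145 and 804 (log2 fold change -2.82) and Actc1, the actin of heart and developing muscle, of 1078 and 5443 (log2 fold change -1.83). Myh3, the embryonic myosin heavy chain, had medians of 891 and 3307 (log2 fold change -1.91), and Des, the intermediate filament desmin, of 6768 and 20463 (log2 fold change -1.77, and -1.18 without libraries 14, 15 and 18).

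Pax7, the factor that marks quiescent satellite cells, was between 0 and 11.3 normalized counts (median 7.31) in the Ceacam1-/- and between 5.47 and 46.8 (median 27.6) in the wild type libraries. Its log2 fold change was -2.36, and -1.57 without libraries 14, 15 and 18. Pax3, which is also expressed by melanocytes, was an exception, with medians of 193 and 161 and a log2 fold change of -1.07 that was 0.41 without these 3. Myf5, Cdh15, Mymk, Ankrd1, Actc1, Myh3, Pax7 and Pax3 are named here after their values were seen.

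The acetylcholine receptor of immature fibres is made with a gamma subunit, which innervated fibres replace. Chrna1, its alpha subunit, was between 135 and 455 normalized counts (median 239) in the Ceacam1-/- and between 311 and 3899 (median 1618) in the wild type libraries. In 5 of 7 Ceacam1-/- libraries it lay below every wild type library, and the log2 fold change was -2.38 (adjusted p = 0.0822 from limma). Chrng, the gamma subunit, had medians of 54.7 and 377 and the largest difference among the named muscle genes, a log2 fold change of -3.06 (adjusted p = 0.0992 from limma). Chrng and Lrp4 are likewise named after their values were seen.

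MyoD and myogenin bind E-boxes of the form CANNTG, and CAGCTG is the form they are best known for. The promoters of both receptor subunits, from 250 bases before to 50 after the start of the gene in RefSeq's GRCm38.p6, carry this hexamer more than once and are shown because both genes differed together with Myog and Myod1. Chrna1 lies on the minus strand at chr2:73580289-73580588 and Chrng on the plus strand at chr1:87205561-87205860, and the capitals mark CAGCTG, which reads the same on both strands.
Chrna1: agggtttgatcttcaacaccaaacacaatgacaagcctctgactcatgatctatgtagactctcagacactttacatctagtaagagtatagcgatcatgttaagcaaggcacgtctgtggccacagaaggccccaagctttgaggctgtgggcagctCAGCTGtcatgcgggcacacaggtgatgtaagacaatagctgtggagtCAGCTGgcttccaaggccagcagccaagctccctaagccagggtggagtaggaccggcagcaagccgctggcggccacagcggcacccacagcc
Chrng: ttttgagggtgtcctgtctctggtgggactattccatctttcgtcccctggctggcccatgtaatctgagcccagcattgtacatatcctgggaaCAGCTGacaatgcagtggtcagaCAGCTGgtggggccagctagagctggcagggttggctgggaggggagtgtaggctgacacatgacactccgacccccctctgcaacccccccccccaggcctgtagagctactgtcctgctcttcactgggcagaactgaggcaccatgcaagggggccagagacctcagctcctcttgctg

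The hexamer CAGCTG was found in 4353 of 27025 promoters (16.1%) of the same length. It was found in 11 of the 22 sarcomere genes with a promoter in the table, in 3 of 14 myogenic genes (21.4%) and in 2 of 5 genes of the neuromuscular junction (40.0%). A match describes the letters in this window and is not evidence of binding.

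Of 9 genes of the neuromuscular junction tested, 7 were lower with an unadjusted p under 0.05, with a median log2 fold change of -1.06, and 4 without libraries 14, 15 and 18, with a median of -0.63. Chrnb1, the beta subunit of the receptor, had medians of 288 and 634 normalized counts (log2 fold change -1.06, and -0.85 without the 3), and Rapsn, which clusters the receptor, of 444 and 739 (log2 fold change -1.37, and -0.61 without the 3). Lrp4, the receptor for agrin, was an exception, with medians of 251 and 220 and a log2 fold change of 0.35, or 0.16 without the 3.

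The myogenic genes were then set against the level of sarcomere RNA. With the mean log2 value of the sarcomere genes as a covariate, 13 of the 20 myogenic genes were lower with an unadjusted p under 0.05 and the median log2 fold change was -1.26. In this fit 362 of all genes (1.83%) were lower at that threshold. Myog differed by -2.76 and Mymx by -2.90 in it, and Acta1 and Ckm, members of the covariate, by 0.14 and 0.10. Without laser, the mean log2 value of the myogenic genes was 7.83 ± 1.46 in the Ceacam1-/- and 8.19 ± 0.84 in the wild type libraries (SD, n = 4 each), and the median log2 fold change was -0.35. Myog was between 26.8 and 446 in the Ceacam1-/- and between 183 and 510 in the wild type libraries without laser.

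The interaction of genotype and laser had an unadjusted p under 0.05 with a negative sign in 7 of the 20 myogenic genes (2.43% of all genes with that sign), and none passed the adjusted p. It was -2.09 for Myog (unadjusted p = 0.0479), -3.07 for Chrng (unadjusted p = 0.0343) and -3.47 for Ankrd1 (unadjusted p = 0.00259). Without libraries 14, 15 and 18 it was -1.84 for Myog, -2.61 for Chrng and -3.10 for Ankrd1, with unadjusted p of 0.109, 0.0871 and 0.013.

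**Figure D3:**
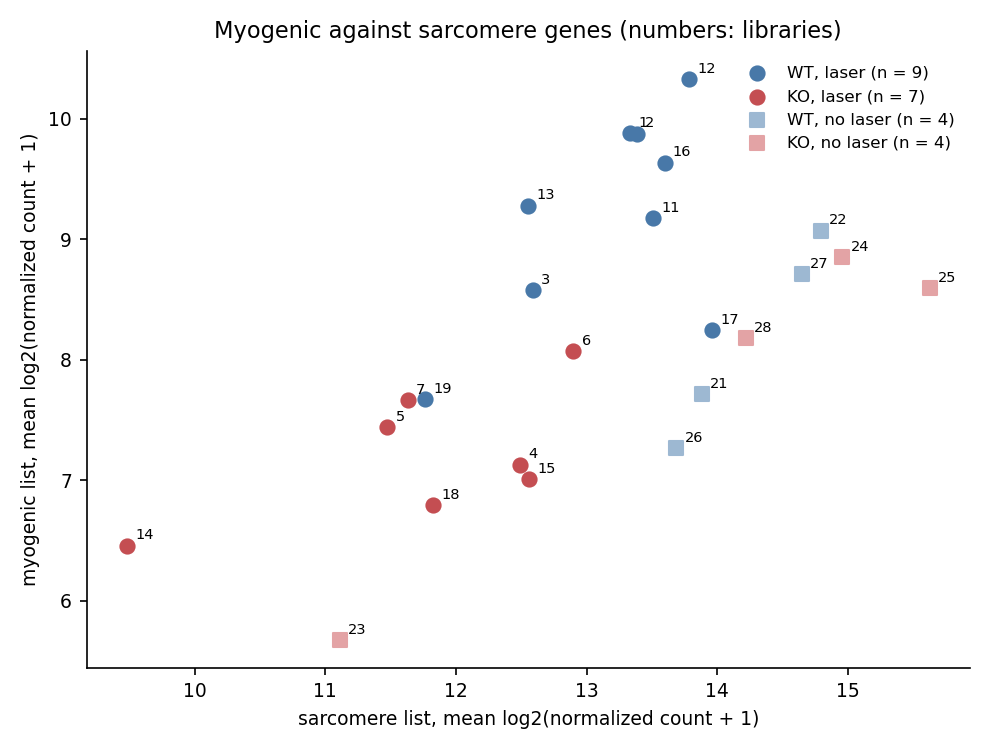
Mean log2(normalized count + 1) of 20 myogenic genes against that of 28 sarcomere genes in each of the 24 libraries, by genotype (WT, wild type, and KO, Ceacam1-/-) and laser, with the library number beside each point. After laser, 6 of 7 Ceacam1-/- libraries lie below every wild type library on the myogenic axis, and 3 of 7 on the sarcomere axis.

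Genes of the RPE were lower as well, but to a smaller extent once libraries 14, 15 and 18 were left out. The RPE recycles the chromophore of the visual pigments and transports nutrients between choroid and retina. Of 20 RPE visual cycle and transport genes, 18 were lower with an unadjusted p under 0.05, with a median log2 fold change of -1.36. All 20 were lower without libraries 14, 15 and 18, 4 with an unadjusted p under 0.05, and the median was -0.54. The mean log2 value was 11.52 ± 1.00 (SD, n = 7) in the Ceacam1-/- and 12.82 ± 0.54 (SD, n = 9) in the wild type libraries, and 12.28 ± 0.31 (SD, n = 4) in libraries 4, 5, 6 and 7.

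Rpe65, the isomerase of the visual cycle, was between 2045 and 25636 normalized counts (median 12802) in the Ceacam1-/- and between 12963 and 56349 (median 33812) in the wild type libraries. In 4 of 7 Ceacam1-/- libraries it was below every wild type library, with a log2 fold change of -1.75 (adjusted p = 0.119 from limma), or -0.65 without libraries 14, 15 and 18. Stra6, the receptor for retinol-binding protein, had medians of 3407 and 8499 (log2 fold change -1.90, and -0.82 without the 3), and Slc6a20a, a transporter of proline, of 2196 and 6035 (log2 fold change -1.86, and -0.91 without the 3). Ttr, the retinol and thyroxine carrier with the highest normalized count of the list, had medians of 75382 and 134473 (log2 fold change -1.37, and -0.44 without the 3), and Rlbp1, the retinaldehyde-binding protein that glia also express, of 9420 and 22560 (log2 fold change -0.86, and -0.58 without the 3). Without laser these 5 genes differed by between -0.40 and 0.56 on the log2 scale.

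Melanin synthesis is shared by RPE and choroidal melanocytes. Of 12 of its genes, 3 were lower and 1 higher with an unadjusted p under 0.05, and the median log2 fold change turned from -1.05 with all libraries to 0.31 without libraries 14, 15 and 18. Tyr, tyrosinase, differed by -1.33 with all libraries and by -0.01 without the 3. Dct, dopachrome tautomerase, had medians of 40322 and 41640 and differed by -0.85 and by 0.36. In contrast, Mc1r, the melanocortin receptor of melanocytes, was between 46.1 and 99.2 normalized counts (median 53.4) in the Ceacam1-/- and between 15.2 and 49.8 (median 26.8) in the wild type libraries, a log2 fold change of 1.03 that was 1.12 without the 3 libraries (adjusted p = 0.112 and 0.336 from limma). Rab27a, which carries melanosomes to the cell periphery, differed by -1.12 and by -0.44.

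Retinal genes were higher in Ceacam1-/- mice with all libraries, and this rested on libraries 14, 15 and 18. Of 22 rod genes 15 were higher with an unadjusted p under 0.05 (median log2 fold change 2.00), of 10 cone genes 5 (median 1.89) and of 25 inner retinal neuron genes 12 (median 1.69). Without the 3 libraries none of the rod genes passed the unadjusted p and the medians were 0.24, 0.36 and 0.40. Without laser the medians of the rod, cone and inner retinal genes were -1.54, -0.98 and -0.64, and no gene of the 3 lists had an unadjusted p under 0.05.

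Guca1a, the activator of guanylate cyclase in photoreceptors, differed by 2.04 with all and by 0.40 without the 3 libraries, Pde6h, the inhibitory subunit of the cone phosphodiesterase, by 2.38 and 0.80, and Calb1, a calcium buffer of horizontal cells, by 3.14 and 1.45. Of 15 genes of Müller glia and astrocytes, 5 were lower and 2 higher with an unadjusted p under 0.05, with a median log2 fold change of -0.40, or 0.01 without the 3 libraries. Sox9, a transcription factor of Müller glia and RPE, had medians of 2903 and 4690 (log2 fold change -0.71, and -0.32 without the 3).

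**Figure D4:**
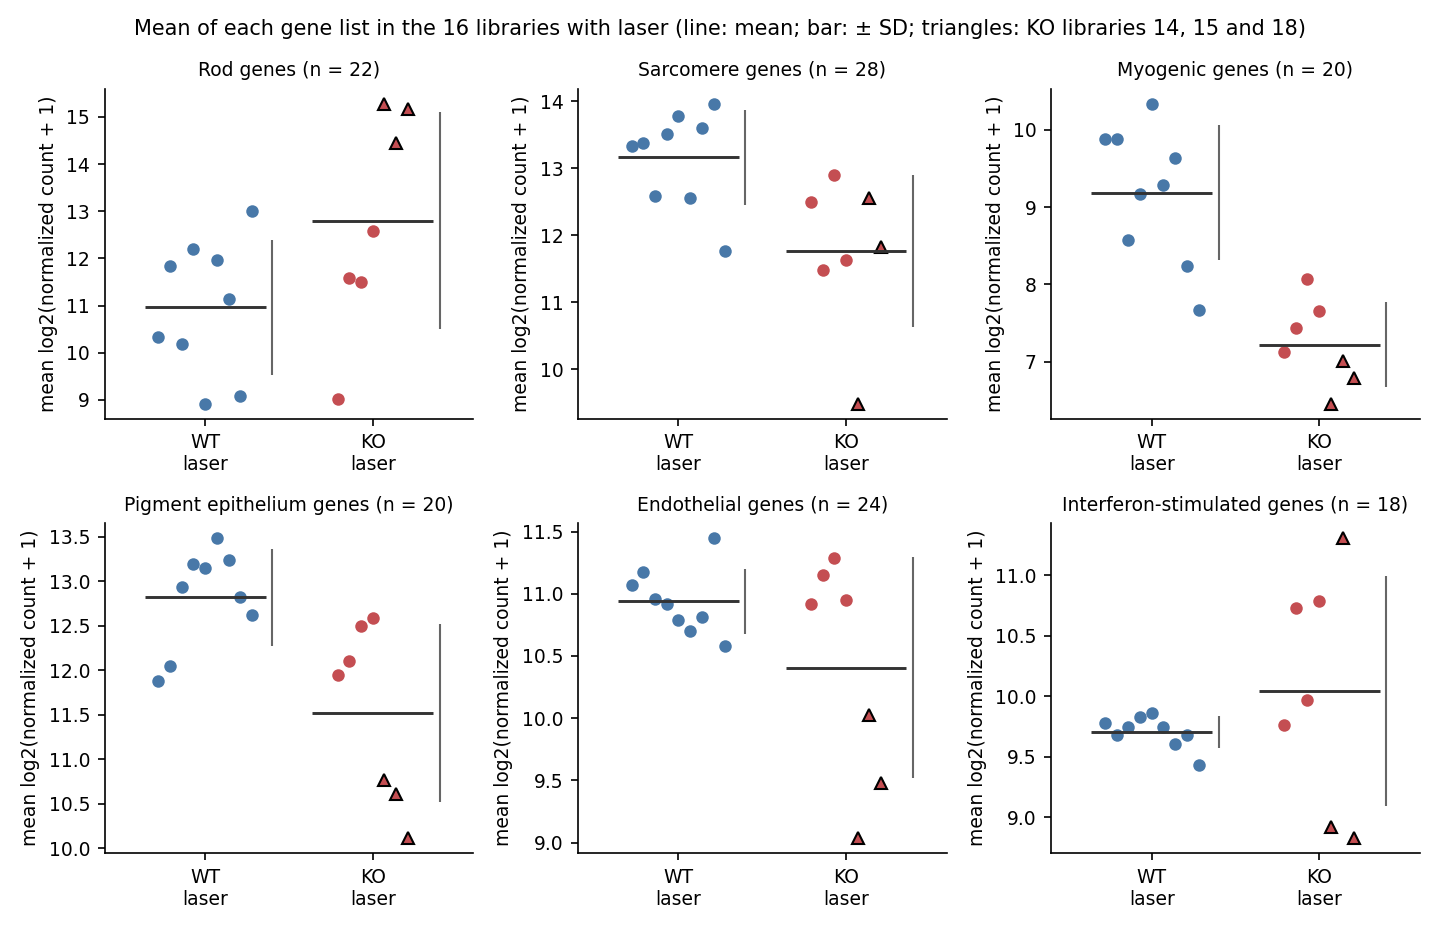
Mean log2 value of the rod, sarcomere, myogenic, RPE, endothelial and interferon-stimulated genes in each laser library, by genotype (WT, wild type, and KO, Ceacam1-/-), with the group mean as a line, its SD as a bar and libraries 14, 15 and 18 as triangles. The rod genes are highest and the endothelial and RPE genes lowest in these 3 libraries, while the myogenic genes are below every wild type library in 6 of 7 Ceacam1-/- libraries.

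Since CEACAM1 is expressed on endothelium and laser induces vessel growth, vascular genes were of particular interest. Of 24 endothelial and choriocapillaris genes, 5 were lower with an unadjusted p under 0.05 and none higher, with a median log2 fold change of -0.52. Of all genes, 9.85% were lower and 12.8% higher at that p. The median of the list was 0.13 without libraries 14, 15 and 18, with 2 genes higher and none lower, compared with 4.44% and 3.96% of all genes. The mean log2 value of the list was 10.41 ± 0.89 (SD, n = 7) in the Ceacam1-/-, 10.94 ± 0.26 (SD, n = 9) in the wild type libraries and 11.08 ± 0.17 (SD, n = 4) in libraries 4, 5, 6 and 7.

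Pecam1, the endothelial adhesion molecule CD31, had medians of 2672 and 2808 normalized counts, and Plvap, the diaphragm protein of fenestrated choriocapillaris with the highest normalized count of the list, of 7468 and 9776. Pecam1 differed by -0.50 with all libraries and by 0.067 without the 3, and Plvap by -0.82 and 0.18. Of 15 pericyte and smooth muscle genes 6 were lower at the unadjusted p, with a median of -0.68, or 0.07 without the 3. Abcc9, the potassium channel regulator of pericytes, had medians of 1035 and 1392 and differed by -0.82 and -0.22.

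Of 16 genes of the VEGF and angiopoietin axis, 9 were lower with an unadjusted p under 0.05 (median log2 fold change -0.71), and none without libraries 14, 15 and 18 (median 0.01). Vegfa was between 2589 and 4789 normalized counts (median 3267) in the Ceacam1-/- and between 2796 and 6621 (median 4605) in the wild type libraries, with a log2 fold change of -0.38 (SE 0.18, adjusted p = 0.223 from limma) and wide overlap, or -0.24 without the 3 libraries. Vegfb had medians of 1608 and 2055 (log2 fold change -0.39, and -0.14 without the 3). Angpt2, the angiopoietin that destabilizes vessels, was between 115 and 458 (median 330) and between 330 and 674 (median 555), with a log2 fold change of -0.85 that was -0.37 without the 3 libraries and -0.73 without laser. Angptl4, an inhibitor of lipoprotein lipase induced by hypoxia, differed by -1.12 after and by 1.01 without laser, an interaction of -2.13 with an unadjusted p of 0.00375. Without the 3 libraries Angptl4 differed by -0.40 after laser, and the interaction was -1.41 (unadjusted p = 0.0286).

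Immune genes were examined by cell type. Of 20 genes of resident macrophages and microglia, 3 were lower and 1 higher with an unadjusted p under 0.05 (median log2 fold change -0.50, or 0.23 without libraries 14, 15 and 18). Of 24 genes of recruited monocytes and macrophage activation, 4 were lower and 1 higher (median -0.52, or 0.13 without the 3). Among all genes tested 9.85% were lower and 12.8% higher at that p, so by this count neither list stood far from all genes. By direction alone, 18 of the 20 and 21 of the 24 genes were lower, compared with 48.8% of all genes. Without the 3 libraries, 16 of the 20 and 19 of the 24 were higher. Aif1, which encodes IBA1, had medians of 851 and 797 normalized counts and a log2 fold change of -0.22, or 0.23 without the 3. Csf1r, the receptor for the macrophage growth factor, had medians of 2891 and 3642 and differed by -1.02 with all and by -0.20 without the 3 libraries.

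Ly6c2, a surface marker of inflammatory monocytes, was between 80.8 and 409 normalized counts (median 154) in the Ceacam1-/- and between 70.8 and 128 (median 98.1) in the wild type libraries. Its log2 fold change was 0.69, and 1.12 without the 3 libraries, with an adjusted p of 0.214 and 0.33 from limma. Inpp5d, the phosphatase SHIP1 that dampens signalling of leukocyte receptors, had medians of 492 and 577 and a log2 fold change of -0.74, or -0.11 without the 3 libraries. In mice without laser it differed by 1.27, and the interaction was -2.01 with an unadjusted p of 0.000302, or -1.38 (unadjusted p = 0.000745) without the 3.

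Of 16 genes of lipid-associated macrophages, which take up lipid and debris, 10 were lower with an unadjusted p under 0.05, with a median log2 fold change of -0.73. Without libraries 14, 15 and 18, 3 were lower and the median was -0.03. Spp1, osteopontin, had the highest normalized count of the list, with medians of 154923 and 192190 normalized counts, and differed by -0.61 with all and by 0.16 without the 3 libraries. Gpnmb, a glycoprotein of phagocytes and melanosomes, differed by -1.05 and by -0.00. Cd36, a scavenger receptor for oxidized lipid, was between 824 and 3215 (median 1464) in the Ceacam1-/- and between 1956 and 4313 (median 3056) in the wild type libraries. Its log2 fold change was -1.14 (SE 0.25, adjusted p = 0.0831 from limma), and -0.75 without the 3 libraries. Muscle, endothelium and RPE also express Cd36, and it differed by -0.50 with the sarcomere genes as a covariate.

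Interferon-stimulated genes are switched on when type I interferon activates a transcription factor complex that contains STAT2 and IRF9. Of 18 such genes, 4 were higher with an unadjusted p under 0.05 and none lower, with a median log2 fold change of 0.38. Without libraries 14, 15 and 18 all 18 were higher, 13 with an unadjusted p under 0.05 (4.44% of all genes in that direction), and the median was 0.59. Their mean log2 value was 10.04 ± 0.95 (SD, n = 7) in the Ceacam1-/- and 9.71 ± 0.13 (SD, n = 9) in the wild type libraries. In 4 Ceacam1-/- libraries it lay above every wild type library, with 11.3 in library 15 the highest, and in libraries 14 and 18 below every one.

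Stat2 was between 1136 and 2373 normalized counts (median 1713) in the Ceacam1-/- and between 777 and 1268 (median 961) in the wild type libraries. In 6 of 7 Ceacam1-/- libraries it was above every wild type library, and the log2 fold change was 0.74 (SE 0.15, adjusted p = 0.0822 from limma), or 0.59 without the 3 libraries. Irf7, the factor that amplifies interferon production, had medians of 1464 and 936 (log2 fold change 0.83). Ifit1, an RNA-binding antiviral protein, was between 720 and 12280 in the Ceacam1-/- and between 961 and 1630 in the wild type libraries (log2 fold change 0.63, and 0.18 without library 15, which held the highest value), and Mx1, an antiviral GTPase named after its values were seen, had medians of 137 and 95.6 (log2 fold change 0.76, and 1.36 without the 3). Without laser the median log2 fold change of the 18 genes was 0.45.

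The interferon-stimulated response element carries a pair of TTTC blocks, and its core was sought on both strands as TTTC, any 2 bases and TTTC, which read as GAAA blocks on the other strand. It was found in 943 of 27025 promoters (3.49%) and in 9 of 15 interferon-stimulated genes with a promoter in the table (60.0%). The promoters of Stat2, which had the lowest p of the group, and of Ifit1, a typical target, are shown with these matches in capitals. They lie on the plus strand in RefSeq's GRCm38.p6, at chr10:128270248-128270547 and chr19:34640639-34640938, from 250 bases before to 50 after the start. Such a match too describes letters only.
Stat2: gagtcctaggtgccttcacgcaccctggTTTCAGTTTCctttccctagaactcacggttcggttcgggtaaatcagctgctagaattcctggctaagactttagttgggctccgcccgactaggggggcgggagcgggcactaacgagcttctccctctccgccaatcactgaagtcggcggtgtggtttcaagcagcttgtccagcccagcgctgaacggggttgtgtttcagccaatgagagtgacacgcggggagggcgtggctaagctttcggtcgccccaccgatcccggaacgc
Ifit1: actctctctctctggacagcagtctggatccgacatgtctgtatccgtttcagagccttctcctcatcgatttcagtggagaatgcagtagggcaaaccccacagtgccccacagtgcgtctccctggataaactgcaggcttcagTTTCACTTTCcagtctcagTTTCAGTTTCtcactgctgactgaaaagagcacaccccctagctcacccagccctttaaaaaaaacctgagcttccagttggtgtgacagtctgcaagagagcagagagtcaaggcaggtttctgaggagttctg

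Of 15 lymphocyte genes, 1 was lower with an unadjusted p under 0.05, compared with 9.85% of all genes, and the median log2 fold change was 0.13. It was 0.67 without libraries 14, 15 and 18, with 3 genes higher. The mean log2 value of 5.02 ± 0.88 (SD, n = 7) and 4.94 ± 0.23 (SD, n = 9) was low in both groups. Of 10 neutrophil and mast cell genes tested none had an unadjusted p under 0.05 (median -0.30, or 0.51 without the 3), and 7 further genes of this list were below the level tested. Of 15 antigen presentation genes 6 were lower and 1 higher (median -0.27, or 0.13 without the 3). H2-Ab1, a chain of MHC class II, had medians of 4269 and 5918 normalized counts and a log2 fold change of -0.86, or -0.41 without the 3.

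Of 17 complement genes 2 were lower with an unadjusted p under 0.05 (median -0.50), a share near the 9.85% of all genes tested. Without libraries 14, 15 and 18, 4 were higher and none lower at that p (median 0.24), and 4.44% of all genes were higher. By direction alone, all 17 were lower with all libraries, compared with 48.8% of all genes, and 12 were higher without the 3. Serping1, the C1 inhibitor with the highest normalized count of the list, differed by -0.29 with all and by 0.73 without the 3 libraries.

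Genes of the matrix and of the injury response were examined next. Of 20 fibrillar collagen and crosslinking genes, 7 were lower with an unadjusted p under 0.05 with all libraries (median log2 fold change -0.64), and 6 were higher and none lower without libraries 14, 15 and 18 (median 0.23). Col1a1, the main collagen chain of sclera and scars, was between 10946 and 193877 normalized counts in the Ceacam1-/- and between 45515 and 122280 in the wild type libraries. Its log2 fold change was -0.42 with all libraries and 0.93 without the 3. The genotypes then did not overlap, as in 0.694% of all genes tested without the 3. Postn, periostin, a matrix protein of activated fibroblasts, had medians of 5884 and 15107 and differed by -1.89 and by -0.93.

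Of 17 matrix proteases and inhibitors 5 were lower and 1 higher (median -0.44, or 0.30 without the 3), of 14 TGF-beta signalling genes 2 were lower (median -0.42, or 0.17) and of 14 genes of scleral fibroblasts and cartilage 2 were lower and 2 higher (median -0.31, or 0.44), each at an unadjusted p under 0.05. For TGF-beta signalling and the sclera, 2 of 14 genes is a share near that of all genes, of which 9.85% were lower and 12.8% higher. By direction alone, 14 and 11 of the 14 genes were lower, compared with 48.8% of all genes. Without the 3 libraries, 11 and 12 of the 14 were higher. Adamts18, a secreted metalloprotease, went the other way. It was between 27.6 and 155 normalized counts (median 53) in the Ceacam1-/- and between 4.51 and 39.9 (median 10.8) in the wild type libraries, with a log2 fold change of 2.32 (SE 0.48, adjusted p = 0.0822 from limma) and 1.59 without the 3 libraries. Without laser it differed by -1.39, and the interaction was 3.71 with an unadjusted p of 0.000162, or 2.98 (unadjusted p = 0.00151) without the 3.

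Of 15 acute phase and STAT3 response genes 4 were lower (median -0.56, or -0.14 without the 3) and of 15 coagulation and fibrinolysis genes 5 (median -0.53, or 0.02). Both counts are at an unadjusted p under 0.05, which 9.85% of all genes reached in that direction. Osmr, the oncostatin M receptor, had medians of 2152 and 3493 normalized counts (log2 fold change -0.88, and -0.46 without the 3). F3, tissue factor, which starts coagulation, had medians of 1925 and 3211 (log2 fold change -0.76, and -0.57 without the 3, adjusted p = 0.114 and 0.352 from limma).

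Of 20 cell cycle genes 9 were lower with an unadjusted p under 0.05 (median log2 fold change -0.58), and none without libraries 14, 15 and 18 (median -0.12). Cdk1, the kinase that starts mitosis, had medians of 686 and 852 normalized counts and differed by -0.87 and by -0.34. For 20 genes of hypoxia and glycolysis the median was -0.00 with all libraries and -0.37 without the 3, with 3 and 8 genes lower. Slc2a1, the glucose transporter of RPE and endothelium at the blood-retinal barrier, had medians of 6616 and 13829 (log2 fold change -0.76, and -0.56 without the 3), and Slc16a3, the transporter that exports lactate, of 1087 and 1751 (log2 fold change -0.48 and -0.51).

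Of 20 nuclear genes of oxidative phosphorylation 8 were lower (median -0.27) and 5 without the 3 libraries (median -0.30). Atp5f1a, the alpha subunit of ATP synthase, was between 11899 and 18497 (median 16226) in the Ceacam1-/- and between 16484 and 25535 (median 20273) in the wild type libraries, with a log2 fold change of -0.44, or -0.20 with the sarcomere genes as a covariate. The 17 other genes of the mitochondrial ribosome tested had a median of -0.17, with 2 lower at an unadjusted p under 0.05, compared with -0.99 for Mrps12 itself. Without the 3 libraries their median was -0.0872, with none lower. Of 15 immediate early genes none had an unadjusted p under 0.05, with a median of -0.14 or 0.12.

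Of 13 circadian clock genes 12 were higher in Ceacam1-/- mice, 3 with an unadjusted p under 0.05, compared with 12.8% of all genes. The median log2 fold change was 0.41, or 0.07 without libraries 14, 15 and 18. Per3 was between 1408 and 2560 normalized counts (median 1810) in the Ceacam1-/- and between 689 and 1855 (median 934) in the wild type libraries, with a log2 fold change of 0.83 (adjusted p = 0.0825 from limma), or 0.65 without the 3. Per1 had medians of 1170 and 423 and differed by 0.93, by 0.94 without the 3 libraries and by 0.88 without laser. The time of day at which the tissue was taken is not given in the sources used here.

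Genes of other tissues of the eye and of blood and fat were examined to see what the dissections carried. Of 13 lens crystallins 1 was lower with an unadjusted p under 0.05 (median -0.14), but 7 were higher and 1 lower without libraries 14, 15 and 18 (median 1.00). Of 15 genes of the surface epithelium 2 were lower and 1 higher (median -0.09, or -0.58 without the 3). Of all genes tested with all libraries, 9.85% were lower and 12.8% higher at that p. Of 11 Schwann cell and myelin genes 1 was lower (median -0.33), and 5 were higher without the 3 libraries (median 0.85).

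The 5 erythroid genes tested had a median of 0.70, and all 5 were higher with an unadjusted p under 0.05 without the 3 libraries (median 1.65). Hba-a1, an alpha globin whose reads may be shared with its near-identical copy Hba-a2, had medians of 648 and 596 normalized counts, and Alas2, the first enzyme of heme synthesis in red cells, of 47 and 23.2. They differed by 1.66 and 1.65 without the 3 libraries, with an adjusted p of 0.43 and 0.33 from limma. Of 7 adipocyte genes 1 was lower (median -1.03, or -0.38). The simple epithelial keratins Krt8 and Krt18, which the RPE expresses, had medians of 3442 and 5969 and of 7295 and 11972, and 6 of 7 Ceacam1-/- libraries lay below every wild type library in both (log2 fold change -1.27 and -1.10). Without the 3 libraries Krt8 differed by -0.55 and Krt18 by -0.50.

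As another way to account for retinal RNA, the mean log2 value of the rod genes was used as a covariate. The median log2 fold change was then -1.81 for the myogenic, -0.69 for the sarcomere, -0.92 for the RPE, -0.10 for the endothelial and 0.44 for the interferon-stimulated genes, compared with 0.02 for all genes tested.

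**Figure D5:**
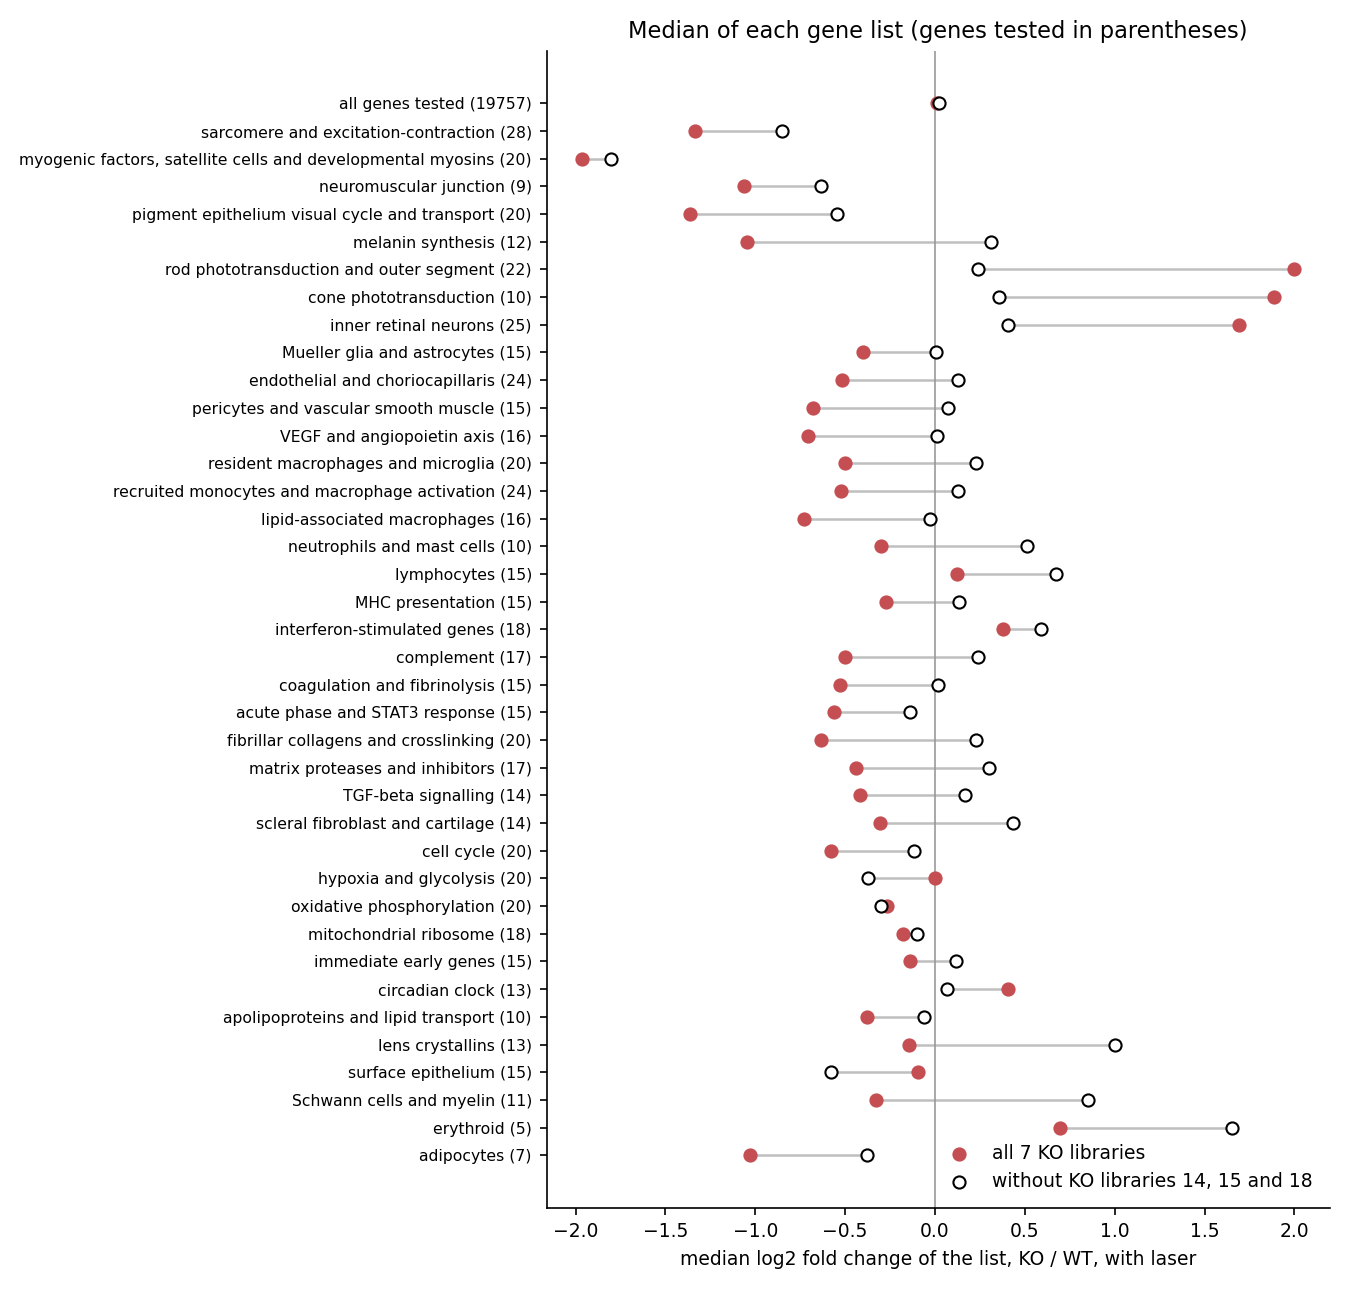
Median log2 fold change, Ceacam1-/- minus wild type after laser, of each gene list with all 16 libraries (filled) and without Ceacam1-/- (KO) libraries 14, 15 and 18 (open), joined by a line. The myogenic genes are at -1.96 and -1.80 and the sarcomere genes at -1.34 and -0.85, whereas the endothelial, resident macrophage and collagen genes cross 0 and the rod genes move from 2.00 to 0.24.

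Further genes were named for their low p alone. Among the higher ones, Cep95, a centrosomal protein, was between 332 and 705 normalized counts (median 392) in the Ceacam1-/- and between 194 and 290 (median 218) in the wild type libraries. There was no overlap, and the log2 fold change was 0.91 (SE 0.16, adjusted p = 0.0822 from limma) and 0.76 without libraries 14, 15 and 18. Ptprs, a receptor tyrosine phosphatase of axons, was between 3931 and 5635 (median 4521) and between 2648 and 3679 (median 3234), and Rnpc3, a protein of the minor spliceosome, between 1227 and 3043 and between 778 and 1178. Neither overlapped, with log2 fold changes of 0.52 and 0.85, and Rnpc3 differed by 0.56 without the 3 libraries. Such separation was seen in 15 higher (0.0759%) and 14 lower genes (0.0709%) of all genes tested. It was seen in 134 genes (0.694%) without the 3 libraries, when fewer libraries separate more easily.

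Acrbp, a protein of the sperm acrosome, had medians of 230 and 102 normalized counts over all libraries and was 2.50-fold higher by its log2 fold change. Without libraries 14, 15 and 18 that log2 fold change was 1.09. Vwc2, a secreted antagonist of bone morphogenetic proteins, had medians of 106 and 29.4 (log2 fold change 1.58, and 1.54 without the 3), and Fmn1, formin 1, an actin nucleator, of 1596 and 954 (log2 fold change 0.70, and 0.61 without the 3). Among the lower ones, Casq2, the calcium-binding protein of the sarcoplasmic reticulum in heart and slow muscle, was between 133 and 384 (median 224) in the Ceacam1-/- and between 325 and 2159 (median 1232) in the wild type libraries. Its log2 fold change was -1.95 (adjusted p = 0.0822 from limma) and -1.65 without the 3 libraries.

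Fndc3c1, a fibronectin domain gene on the X chromosome, was between 2.22 and 57.6 (median 20.1) in the Ceacam1-/- libraries. It was between 57.5 and 261 (median 135) in the wild type libraries, with a log2 fold change of -2.73. Libraries 14, 15 and 18 were at 2.22, 20.1 and 13.3, and libraries 4, 5, 6 and 7 at 57.6, 32.5, 12.4 and 39.6. Sult1c1, a cytosolic sulfotransferase, had medians of 403 and 1329 (log2 fold change -1.75, and -1.21 without the 3). Of the 106 genes with an adjusted p under 0.1, 90 were protein coding, 13 lay within 10 Mb of Ceacam1 and 9 were members of the muscle lists.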

How the data were processed

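Choroidal RNA was sequenced by the authors from SMART-Seq libraries, which are not stranded. Per the labels and the study's methods, read quality was checked with FastQC 0.11.5, reads were estimated per gene with Salmon 1.10.3 on GRCm39 and normalized with DESeq2 1.44.0. The study's methods remove 1 outlier and use sex as a covariate, and neither is assigned to a library in the labels. The deposited signal values are normalized counts of 56065 genes in 1 table, with a column for each library. Whole reads could not be recovered, since at best 35.5% to 77.2% of the low values of a library lay within 5% of a whole multiple of 1 read, so that tests for counts were not used and intervals for counting error are not given.

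Genotypes were compared in the 16 libraries with laser by limma (version 3.58.1, R 4.3.3), applied to log2 values with a pseudocount of 1 and with variances that follow the mean. Genes with a mean of 10 or more were tested, with Benjamini-Hochberg adjustment and a threshold of 0.05. The 8 libraries without laser, and the interaction in all 24, were fitted in the same way. Single genes were compared by two-sided exact permutation over 11440 splits with and 70 without laser. Positions came from the GENCODE annotation of GRCm39, which matched 99.1% of the gene identifiers, and promoters from RefSeq, matched by symbol. A list of genes was described by its counts and its median beside all genes tested.

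The members and the 41 lists were chosen with earlier results of these data known. Named were the genes past the threshold, the 10 protein-coding genes of lowest p in each direction, Ceacam1, Ceacam2, Tescl, Apoc2, Mrps12 and Myog, the first 2 genes, the 2 of lowest p and the most abundant of each list, the 5 of lowest p near Ceacam1 and the Y-linked genes, and others where the text says so. The values of some named genes are not reported here. As alternatives, the pseudocount was set to 0.5 or 10, the filter dropped or raised to a mean of 50, values rescaled by quantiles or upper quartiles, limma run without the trend or with array weights, Y-linked, rod or sarcomere genes added as a covariate, all 24 libraries fitted together and single libraries omitted. Robust variances, an adjusted p of 0.1 and leaving out libraries 14, 15 and 18 were chosen after seeing the data. Tested on simulated data of 19757 genes with 200 changed, the comparison recovered 72, 150 and 188 of them when the log2 change was 1, 2 and 4. Tables and figures were made with Python 3.11.15, pandas 2.3.3, numpy 2.4.6 and matplotlib 3.10.9.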

Additional observations from a re-analysis of the deposited data

Results flagged for a closer look

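Within each genotype after laser, single libraries that lay apart from the others of their group were sought by Dixon's test in 90 sets of values, and 7 were found, where chance gives about 1 in 20. Among the Ceacam1-/- libraries, library 14 was the lowest in sarcomere genes, with a mean log2 value of 9.48 compared with 11.5 for the next, and library 18 was the lowest in lens crystallins, with 3.35 compared with 8.06 for the next. Among the wild type libraries, library 19 had the highest log2 value of Ceacam1, 13.03 compared with 10.8 for the next, and the lowest mean of lymphocyte genes, 4.43. Library 2 had the highest log2 value of the pseudogene Gm45246, 3.85 compared with 1.15 for the next. Library 12 had the lowest mean of the genes of Müller glia and astrocytes, 10.9, and library 1 the highest of the genes of resident macrophages and microglia, 10.4.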

How the results depend on the processing

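The number of genes past the adjusted p of 0.05 was 4 and depended on the setting. It was 2 with a mean of at least 50, 297 with array weights, 1 with the sarcomere covariate, 9 with all 24 libraries in the fit, 2 without libraries 14, 15 and 18, 106 at an adjusted p of 0.1 and between 4 and 61 when single libraries were omitted. The 4479 genes at an unadjusted p under 0.05 were 2196 with the Y-linked, 1500 with the rod and 638 with the sarcomere covariate, 1623 without libraries 14, 15 and 18 and between 2575 and 5835 when single libraries were omitted, the lowest without library 14. The 29 genes whose genotypes did not overlap were 134 without the 3 libraries and between 30 and 95 when single libraries were omitted. Fewer libraries separate more easily, so a rise is built into this count. Ceacam1 was between -2.44 and -1.82 when single libraries were omitted and passed the threshold with array weights, at -1.70 with an adjusted p of 0.0365 from limma. The 1241 of 19950 genes at an unadjusted p under 0.05 in the interaction were 2591 with array weights. The number was 2270 of 40409 genes without a filter and 458 of 19723 genes without libraries 14, 15 and 18. Apart from these settings the cause was not tested. Without the 3 libraries the log2 fold change turned to 0.41 for Pax3, 0.36 for Dct, 0.067 for Pecam1, 0.18 for Plvap, 0.23 for Aif1, 0.16 for Spp1, 0.73 for Serping1 and 0.93 for Col1a1. With array weights it turned to 0.11 for Pax3, 0.25 for Dct, 0.16 for Plvap, 0.32 for Aif1, 0.41 for Serping1 and 0.60 for Col1a1. With the sarcomere covariate it turned to 0.14 for Acta1, 0.10 for Ckm, 0.18 for Plvap, 0.18 for Aif1, 0.22 for Serping1 and 0.33 for Col1a1. With the rod covariate it turned to 0.15 for Aif1, 0.37 for Serping1 and 0.42 for Col1a1. When single libraries were omitted Serping1 was between -0.53 and 0.072, the highest without library 14. Of 1230 medians of lists under the alternatives, 34 moved by more than 1 SD of the list between libraries. The median changed sign in 19 lists without the 3 libraries, 15 with array weights, 11 with the sarcomere, 8 with the rod and 4 with the Y-linked covariate, and in at most 5 lists under any other setting. No paired analysis was possible because the library numbers are not shared between the groups.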
